A study of Mus musculus with 6 samples.

Results

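The 10 genes described here encode the transcription factor NRF2 (Nfe2l2), its inhibitor KEAP1, and proteins that make, feed or recycle glutathione or belong to the thioredoxin and quinone defences. They were taken by gene symbol: Slc7a11, Gclc, Gclm, Gsr, Gss, Txnrd1, Srxn1, Nqo1, Nfe2l2 and Keap1. Each symbol matched exactly 1 row, giving 10 of the 56884 genes in the table, and all 10 passed the filter on low values. RNA sequencing was done on mature neutrophils of the mouse, isolated from bone marrow by a CD101+ Ly6G+ gate and kept in culture with DKK1 (3 libraries) or with none (3 libraries, control). DKK1 (Dickkopf-1) is a secreted antagonist of Wnt signalling. The sources used here do not give strain, age, DKK1 dose, culture time, what the control cultures received or any pooling of animals. The labels do not say whether libraries of a group are separate animals or cultures, so the spread that p-values measure here is that between libraries and may be technical.

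KEAP1 holds NRF2 in the cytoplasm and directs its destruction. When oxidants or electrophiles modify KEAP1, NRF2 accumulates, pairs with small MAF proteins and binds antioxidant response elements near its target genes, where BACH1 competes for the same sites. Glutathione is built from glutamate, cysteine and glycine, and neutrophils, which make superoxide with their NADPH oxidase, use it with thioredoxin to keep proteins and lipids reduced. These libraries measured transcripts only, and NRF2 protein was not measured.

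The 250 bases before each RefSeq start site (GRCm38.p6) were searched on both strands for the core of the antioxidant response element. Promoters were listed for 8 of the 10 genes, with Gclc and Gsr the missing entries, and they covered 10 start sites. All 8 were higher with DKK1, so rising and falling genes could not be compared. The 10 genes were chosen for their link to NRF2, with earlier results of these data known, so a share above that of all genes is no test. TGACNNNGC was present in Gclm, Nfe2l2 and Txnrd1, 3 of 8 genes, against 11.5% of the 27025 genes in the promoter table. For Txnrd1 it lay at 1 of its start sites. The G variant of the core, TGAGNNNGC, was present in Slc7a11 and Srxn1, 2 of 8 genes, against 16.3% of all genes. The following stretches are written along the gene's own strand, with matches in capitals. In Gclm (chr3:122245393-122245461, plus strand) and Txnrd1 (chr10:82859084-82859152, plus strand) the match reads on the opposite strand. In Nfe2l2 (chr2:75704865-75704913, minus strand) and Srxn1 (chr2:152105449-152105517, plus strand) it reads on the gene's strand.
Gclm: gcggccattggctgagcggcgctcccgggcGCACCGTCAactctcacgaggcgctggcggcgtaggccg
Txnrd1: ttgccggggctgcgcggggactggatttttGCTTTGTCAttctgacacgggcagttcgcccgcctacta
Nfe2l2: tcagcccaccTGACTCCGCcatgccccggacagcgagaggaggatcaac
Srxn1: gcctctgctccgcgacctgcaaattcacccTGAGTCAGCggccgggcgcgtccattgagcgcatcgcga
The match began 134 bases before the start site in Gclm, 92 in Txnrd1, 240 in Nfe2l2 and 45 in Srxn1. Srxn1 held a second match to TGAGNNNGC, on the opposite strand 158 bases before the start, which is not shown. In the stretch shown the capitals also contain TGANTCA, the binding motif of AP-1, which was found in 7.82% of all genes and, among the 8, in Srxn1 alone; another TGANTCA lay 102 bases before its start.

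Slc7a11 carried 2 copies of a different element. TGATGNAA, the core bound by ATF4 and C/EBP factors at amino acid response elements, was found in 3.91% of all genes and, among the 8, in Slc7a11 alone. The stretch shows both copies, in opposite orientations, 66 and 47 bases before the start site (chr3:50443642-50443709, minus strand). The TGAGNNNGC match of Slc7a11 began 97 bases before the start. The stretch opens inside it and leaves it in lower case.
Slc7a11: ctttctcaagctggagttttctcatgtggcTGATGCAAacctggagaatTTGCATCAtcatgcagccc
None of the 4 motifs was in these windows of Gss, Nqo1 or Keap1. A match is a string of letters and was not tested for binding, and the motifs' letters say nothing of elements farther from the start.

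Values below are normalized counts as deposited, a read count divided by a factor for each library. Recovered read totals ran from 5188116 to 9851961 per library, and the members' values rest on 12 to 67807 reads each. Summed normalized counts were 9729307 ± 39771 in control and 6738824 ± 336773 with DKK1 (SD, n = 3 each), so the scaling matters: setting all libraries to equal totals moved the median log2 change of all genes tested by 0.50, from -0.03 to 0.48. Of 16265 genes tested by limma with Benjamini-Hochberg adjustment, 5709 were higher and 5873 lower with DKK1 (49.3% of calls higher), and with equal totals 7159 and 4617 (60.8% higher). The sorting markers were present in control and nearly absent with DKK1. Cd101 stood at 5098 ± 178 in control and 3.53 ± 2.31 with DKK1, and Ly6g at 1338 ± 72.7 and 5.96 ± 1.30. The summed level of 14 neutrophil markers ranged from 708604 to 734049 in control and from 7264 to 8116 with DKK1; 13 of the 14 were lower and Camp was not past the threshold. That of 15 macrophage markers ranged from 5393 to 5664 and from 28908 to 30950. Most of the DKK1 sum came from Gpnmb (mean 14292) and Cd68 (mean 10121). Among the 15 markers 5 were higher (Gpnmb and Cd68 included), 7 lower and 3 not past the threshold, and C1qa and Cd163 were at 0 in all DKK1 libraries. The mitochondrial share of normalized counts was 0.125% to 0.129% in control and 0.255% to 0.310% with DKK1. In such bulk libraries fewer cells of a type and less RNA per cell cannot be told apart, and the part of these shifts in the results below was not tested.

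With DKK1, 9 of the 10 genes rose and 1, Gsr, fell. The background was high: 71.2% of all genes tested passed the threshold, 35.1% as higher and 36.1% as lower. The median log2 change of the 10 was 4.14, beside -0.03 over all genes tested. The 10 were chosen with earlier results of these data known, so this contrast is a description and no test. In all 10 the 3 DKK1 libraries lay wholly above or wholly below the 3 control libraries, as they did for 73.9% of genes tested. The sizes ran from a 1.29-fold rise of Nfe2l2 to a 97.5-fold rise of Srxn1 (ratios of mean normalized counts). Thus the transcript of the regulator moved least, and 5 of its 9 companions rose by more than 4 on the log2 scale.

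**Figure D1:**
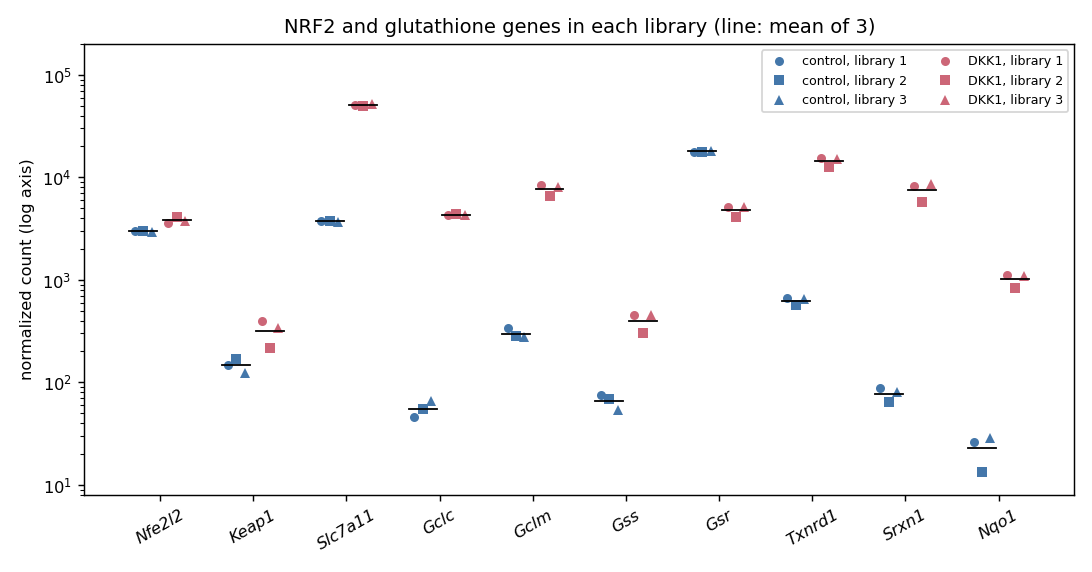
Normalized count of each of the 10 genes (log axis) in the 3 control libraries (blue) and 3 DKK1 libraries (red), with a line at each group mean. Gsr is the gene whose DKK1 libraries (4092 to 5174) lie below control, while Nfe2l2 shows the narrowest gap and the DKK1 library 2 square lies lowest of its group in 8 genes.

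Nfe2l2 had the smallest change of the 10, under the authors' scaling and with equal totals. It encodes NRF2, the activator itself (ENSMUSG00000015839.7; chromosome 2, 75675513 to 75704641, minus strand; protein coding, 5 exons in its longest transcript; positions of all 10 genes are from GENCODE M21 on GRCm38). It stood at 2992, 2983 and 2947 in control libraries 1 to 3 and at 3602, 4120 and 3744 with DKK1. The DKK1 libraries were all higher, and DKK1 library 2 was the highest. The rise was 0.36 on the log2 scale (SE 0.06, 95% interval 0.22 to 0.50, limma adjusted p = 0.000615), and 0.89 with equal totals. Over 17 alternative settings the log2 change lay between 0.30 and 0.89 and the adjusted p did not exceed 0.0266.

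Keap1 encodes the adaptor that presents NRF2 for degradation (ENSMUSG00000003308.16; chromosome 9, 21229730 to 21239361, minus strand; 5 exons). Its control values were 148, 170 and 123, and its DKK1 values 398, 218 and 341. DKK1 library 2 was the nearest to control, but the groups did not overlap. The rise was 1.08 on the log2 scale (SE 0.22, limma adjusted p = 0.00174), or 2.17-fold, and 1.33 without DKK1 library 2. With equal totals it was 1.61. A noncoding antisense gene, Gm16754, shares 510 exonic bases with Keap1 at a mean of 3.52 in control and 9.95 with DKK1, and without strand information reads from the pair cannot be separated.

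The ratio of activator to inhibitor transcripts was not separate between groups. Per kilobase of exon, Nfe2l2 exceeded Keap1 by a factor of 25.0, 21.7 and 29.6 in control and of 11.2, 23.3 and 13.6 with DKK1. DKK1 library 2 fell inside the control range, so these ratios, which no scaling between libraries can alter, overlapped between groups. Against Bach1, the repressor of the same sites, the ratio was 0.993, 0.942 and 0.976 in control and 1.95, 2.68 and 1.94 with DKK1. Here the groups did not overlap: per kilobase Nfe2l2 and Bach1 were close to equal in control, and Nfe2l2 was the more abundant with DKK1.

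Slc7a11 had the highest level per kilobase of the 10 with DKK1. It encodes xCT, the light chain of the transporter that brings in cystine, the oxidized form of cysteine (ENSMUSG00000027737.11; chromosome 3, 49892526 to 50443614, minus strand; 12 exons). The control libraries held 3723, 3767 and 3700 and the DKK1 libraries 50539, 50047 and 52242. Spread within groups was small, with a coefficient of variation of 0.906% in control and 2.26% with DKK1. The rise was 13.7-fold (log2 change 3.77, SE 0.04, limma adjusted p = 2.11e-11). As a share of all normalized counts it went from 0.0383% ± 0.000407 to 0.758% ± 0.0489 (SD, n = 3 each), a 19.8-fold difference. Its promoter is the stretch with the paired TGATGCAA copies shown above.

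The heavy chain Slc3a2, which carries xCT to the membrane, rose as well, from 472 ± 9.38 to 8535 ± 816. Per kilobase, Slc7a11 exceeded Slc3a2 by 1.95, 2.04 and 2.01 in control and 1.58, 1.34 and 1.65 with DKK1. The heavy chain's rise was therefore the larger of the pair, with no overlap of the ratios between groups.

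Gclc and Gclm encode the catalytic and the modifier subunit of glutamate-cysteine ligase, the rate-limiting enzyme of glutathione synthesis. Gclc (ENSMUSG00000032350.10; chromosome 9, 77754535 to 77794485, plus strand; 16 exons) was at 46.1, 54.7 and 65.0 in control and at 4292, 4345 and 4252 with DKK1. The DKK1 libraries agreed closely, with a coefficient of variation of 1.09%. This was a 77.7-fold rise (log2 change 6.27, SE 0.12, limma adjusted p = 3.0e-10), rank 161 of 16265 by size of rise.

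Gclm (ENSMUSG00000028124.16; chromosome 3, 122245557 to 122270732, plus strand; 7 exons) was at 340, 284 and 274 in control and at 8407, 6502 and 8058 with DKK1. Again DKK1 library 2 was the lowest of its group, far above every control library. The rise was 25.6-fold (log2 change 4.67, SE 0.12, limma adjusted p = 1.24e-09). Gclm shares exonic bases with 2 noncoding genes that also stood higher with DKK1, antisense Gm17494 (25.0 in control, 440 with DKK1) and the pseudogene Gm6061 (1.83 and 108), both far below Gclm itself.

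The 2 ligase subunits drew closer. Per kilobase of exon Gclm exceeded Gclc by 4.42, 3.10 and 2.52 in the control libraries, while with DKK1 the ratio was 1.17, 0.896 and 1.13. Every DKK1 library lay below every control library, since the catalytic subunit rose more. Without division by length Gclm stayed above Gclc with DKK1 (means of 7655 and 4296).

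Gss encodes glutathione synthetase, which adds glycine to complete the tripeptide (ENSMUSG00000027610.18; chromosome 2, 155563181 to 155592810, minus strand). Its control values were 75.8, 68.1 and 53.2 and its DKK1 values 451, 302 and 449. DKK1 library 2 was again the lowest of its group. The rise was 6.10-fold (log2 change 2.58, SE 0.20, limma adjusted p = 2.28e-06), the smallest of the 3 synthesis genes. The ratio of Gclc to Gss per kilobase accordingly went from 0.956, 1.26 and 1.92 to 14.9, 22.6 and 14.9. Acss2, on the opposite strand, shares 395 exonic bases with Gss and stood at a mean of 346 in control and 90.7 with DKK1. The 2 genes had opposite directions, and how reads in the shared bases were assigned is not given in the sources used here.

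**Figure D2:**
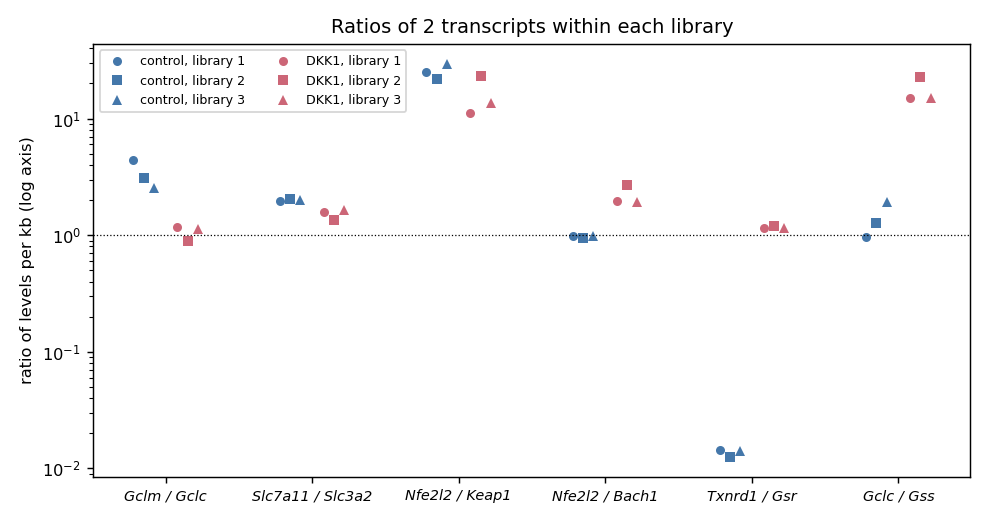
Ratio of the levels per kilobase of 2 transcripts in the same library (log axis), in 3 control (blue) and 3 DKK1 (red) libraries, with a dotted line at 1. Among the 6 pairs drawn Txnrd1 over Gsr shows the widest gap, from 0.0125 to 0.0144 in control to between 1.15 and 1.19 with DKK1, and Nfe2l2 over Keap1 is the pair whose groups overlap.

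Gsr moved against the rest. It encodes glutathione reductase, which uses NADPH to return oxidized glutathione to its reduced form (ENSMUSG00000031584.17; chromosome 8, 33652523 to 33698163, plus strand; 13 exons). Control libraries held 17846, 17791 and 18004, and DKK1 libraries 5174, 4092 and 5097. All DKK1 libraries were lower, library 2 the lowest. The fall was 3.73-fold (log2 change -1.91, SE 0.08, limma adjusted p = 5.19e-08), and -1.38 on the log2 scale with equal totals. Its share of all normalized counts went from 0.184% ± 0.00152 to 0.0715% ± 0.0122 (SD, n = 3 each). In control Gsr ranked 46th per kilobase among genes tested, and with DKK1 it still ranked 124th.

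Txnrd1 encodes cytosolic thioredoxin reductase, the selenoprotein that reduces thioredoxin with NADPH (ENSMUSG00000020250.12; chromosome 10, 82833951 to 82897712, plus strand; 15 exons). It was at 660, 572 and 648 in control and at 15285, 12506 and 15254 with DKK1. The rise was 22.9-fold (log2 change 4.51, SE 0.09, limma adjusted p = 4.4e-10). Both reductases draw on NADPH, and their balance turned over. Per kilobase, Txnrd1 stood at 0.0144, 0.0125 and 0.0140 of Gsr in control and at 1.15, 1.19 and 1.16 with DKK1. This ratio differed little among DKK1 libraries although each gene by itself was lowest in library 2.

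Srxn1 showed the largest rise of the 10. It encodes sulfiredoxin, which repairs peroxiredoxins that have been over-oxidized (ENSMUSG00000032802.9; chromosome 2, 152105516 to 152111376, plus strand; 2 exons). The control values were 87.9, 63.7 and 79.8 and the DKK1 values 8285, 5734 and 8541. DKK1 library 2 was the lowest of its group. The rise was 97.5-fold (log2 change 6.58, SE 0.17, limma adjusted p = 1.51e-09), rank 140 by size of rise. Its substrate gene Prdx1 rose further still, from 78.0, 83.8 and 81.8 to 22267, 13856 and 22535. Per kilobase Srxn1 therefore went from 1.03 ± 0.199 of Prdx1 to 0.419 ± 0.0241 (SD, n = 3 each), without overlap.

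Nqo1 encodes a quinone reductase and is a classical NRF2 target (ENSMUSG00000003849.9; chromosome 8, 107388225 to 107403206, minus strand; 6 exons). It was scarce in control, at 26.4, 13.4 and 28.6, resting on 12 to 29 reads per library. With DKK1 it reached 1118, 837 and 1090. The rise was 44.6-fold (log2 change 5.47, SE 0.26, limma adjusted p = 9.55e-08). Its log2 change, the most exposed to low counts among the 10, lay between 4.99 with a pseudocount of 10 and 5.99 with equal totals.

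**Figure D3:**
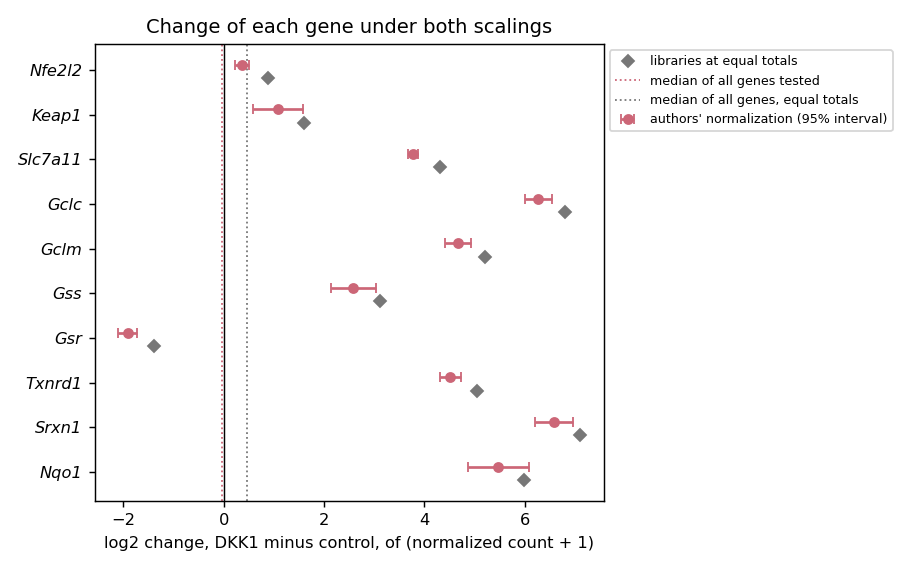
Log2 change, DKK1 minus control, of each gene under the authors' normalization (red circles with 95% intervals) and with libraries at equal totals (grey diamonds); dotted lines mark the median of all genes under each scaling. Equal totals moved every gene to the right by about the shift of the all-gene median (0.50), and Gsr stayed below 0 at -1.38.

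The order of the 10 genes by level per kilobase of exon changed between groups. It rests on exonic lengths merged over all annotated transcripts of each gene. In control Gsr was the highest (6492 ± 40.1), then Nfe2l2 (783 ± 6.34), Slc7a11 (268 ± 2.43), Txnrd1 (88.4 ± 6.75) and Gclm (47.6 ± 5.71). Each of these 5 was above the next without overlap of libraries. Keap1 and Srxn1 followed and overlapped each other, and below them Gclc overlapped Nqo1 and Nqo1 overlapped Gss. With DKK1 Slc7a11 led (3659 ± 82.8), followed by Srxn1 (2667 ± 550), Txnrd1 (2025 ± 225) and Gsr (1739 ± 219). Srxn1 overlapped Txnrd1 and Txnrd1 overlapped Gsr. Gclm and Gclc overlapped at 1217 ± 161 and 1141 ± 12.4, Nfe2l2 followed at 1007 ± 70.4 and Nqo1 at 653 ± 99.8. Keap1 (68.0 ± 19.6) and Gss (67.7 ± 14.4) shared the bottom (SD, n = 3 throughout). Among all genes tested with a gene model, Slc7a11 went from rank 1520 to rank 47 per kilobase, Gclc from 7464 to 229 and Srxn1 from 6063 to 75.

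**Figure D4:**
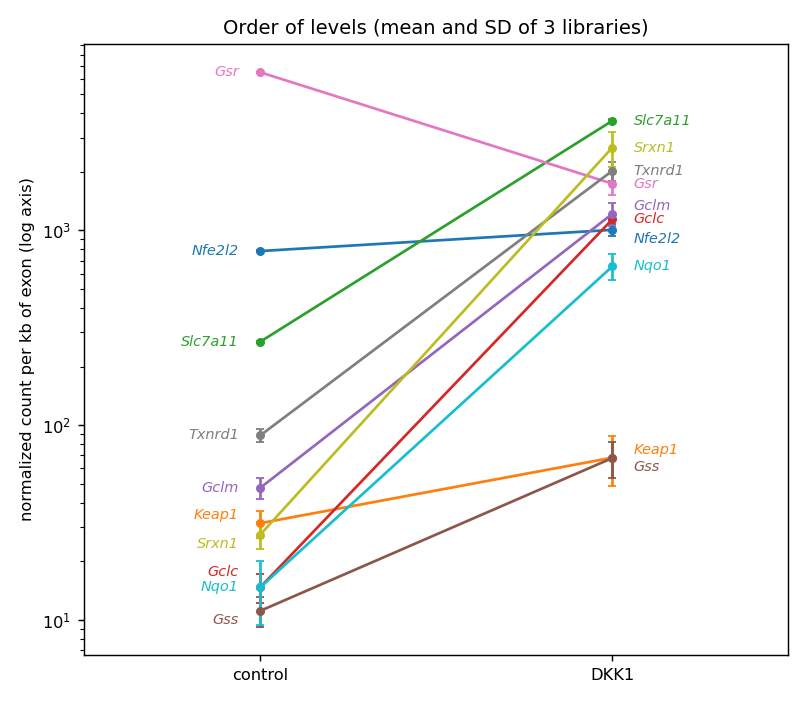
Normalized count per kilobase of exon (log axis) in control and DKK1, mean and SD of 3 libraries for each of the 10 genes. The line of Gsr descends from 6492 to 1739 through the rising lines of Slc7a11, Srxn1 and Txnrd1.

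DKK1 library 2, which had the fewest reads (5188116), stood apart in these genes and beyond them. It was the lowest of the 3 DKK1 libraries in 8 of the 10 genes and the highest in Nfe2l2 and Gclc. Set against the mean of DKK1 libraries 1 and 3 it was below by 40.9% in Keap1, 32.8% in Gss and 31.8% in Srxn1. In Txnrd1, Gsr, Gclm and Nqo1 it was below by 18.1% to 24.2%, and in Slc7a11 by 2.62%. It was above by 1.72% in Gclc and by 12.2% in Nfe2l2. Over the 6255 genes whose DKK1 mean reached 100, this library was the lowest of its group in 36.3% and the highest in 46.9%. Chi-square on reads, per degree of freedom, was 13.6 and 12.5 between it and DKK1 libraries 1 and 3. Between libraries 1 and 3 it was 2.99 (10741 to 11265 genes per pair). All 10 genes stayed past the threshold in the same direction without DKK1 library 2.

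Other genes of the pathway moved in both directions, as did genes at large: 35.1% of all genes tested were higher and 36.1% lower. Of 45 other reported NRF2 targets, 43 were in the table and 35 could be tested: 17 rose, 10 fell and 8 did not pass, and the median change was 0.72 on the log2 scale. That median was not stable: it was -0.01 without DKK1 library 1 (32 tested) and 1.64 without control library 2 (33 tested). The filter was reapplied to the remaining libraries, so the genes entering changed as well. With every library kept, the median was 0.29 with no filter and 1.73 with a filter of 10 in 3 libraries. The 4 taken by smallest adjusted p all rose. The iron store ferritin heavy chain (Fth1) went from 23142 ± 535 to 131532 ± 802, and heme oxygenase (Hmox1) from 1926 ± 7.08 to 22830 ± 889. The glutathione transferase Gstm1 went from 70.1 ± 9.22 to 8597 ± 615, and the glutathione conjugate exporter Abcc1 from 60.1 ± 5.85 to 4050 ± 499. Among the targets that fell were Mgst1, G6pdx, Taldo1, Tkt and Txn1 (Mgst1, Tkt and Txn1 named after their values were seen). With equal totals 18 were higher and 5 lower, beside 7159 higher and 4617 lower of all 15965 genes tested with that scaling. There Tkt no longer passed (limma adjusted p = 0.0516), and Txn1 changed sign (-0.49 to 0.04 on the log2 scale).

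Among 22 genes that act on NRF2 or share its sites, 10 rose and 7 fell, and 5 did not pass. Over all genes tested 35.1% were higher and 36.1% lower. The median change was 0.07 on the log2 scale, or 0.60 with equal totals, beside -0.03 and 0.48 over all genes tested. The small MAF partner gene Maff rose from 23.2 ± 6.94 to 4284 ± 1166, with DKK1 library 2 the highest at 5629. Sqstm1, whose product p62 binds KEAP1, rose 23.9-fold from 1535 ± 35.3 to 36693 ± 7312. Nfe2, a related factor of blood cells, fell from 2311 ± 61.0 to 9.17 ± 2.21, and the coactivator gene Ep300 fell from 5800 ± 62.6 to 2449 ± 83.1. Bach1 fell from 4992 ± 143 to 2882 ± 337 (log2 change -0.80, limma adjusted p = 2.2e-05), and by less with equal totals (-0.27, limma adjusted p = 0.0444). The KEAP1 partner gene Cul3 did not pass (1580 ± 25.9 and 1483 ± 73.4), and its direction depended on the scaling. The log2 change was 0.44 with equal totals (limma adjusted p = 6.56e-05) and -0.15 with median-of-ratios scaling (limma adjusted p = 0.0497).

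Of 30 genes for glutathione precursors, transport and breakdown, 25 were tested, with 12 rising, 8 falling and 5 not past the threshold. Their median was 0.70 on the log2 scale. Among all genes tested 35.1% were higher and 36.1% lower. Besides Slc3a2 and Abcc1, the methionine adenosyltransferase Mat2a rose from 188 ± 17.8 to 1963 ± 84.3 and the gamma-glutamyltransferase Ggt1, which breaks down glutathione outside the cell, from 65.1 ± 6.05 to 914 ± 33.0. Chac1, which degrades glutathione inside the cell, fell from 519 ± 35.8 to 5.97 ± 4.46, and Ggt5 fell from 1360 ± 67.6 to 38.5 ± 19.1 (both named after their values were seen). Thus the 2 gamma-glutamyltransferase genes Ggt1 and Ggt5 moved in opposite directions.

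Of 28 tested enzymes that use glutathione or act on its adducts, 14 were higher, 9 lower and 5 not called, at a median of 0.42 on the log2 scale. The shares over all genes tested were 35.1% higher and 36.1% lower. Besides Gstm1, the esterase Esd, which completes glutathione-dependent formaldehyde removal, rose from 381 ± 31.8 to 12217 ± 755. Glutaredoxin (Glrx) fell from 2228 ± 71.1 to 133 ± 9.08 and glutathione peroxidase 1 (Gpx1) from 4227 ± 18.3 to 105 ± 16.8. Gpx4, which reduces lipid peroxides, fell from 1105 ± 40.9 to 398 ± 17.4 (named after its values were seen).

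Of 20 genes of the thioredoxin system 7 were higher and 8 lower, and 5 did not pass. These counts were near the shares over all genes tested, 35.1% higher and 36.1% lower. The median was -0.10 on the log2 scale, or 0.43 with equal totals, beside -0.03 and 0.48 over all genes tested. Prdx1 rose, whereas the thioredoxin inhibitor gene Txnip fell from 22761 ± 113 to 1424 ± 339. The methionine sulfoxide reductases Msra and Msrb1 fell from 1704 ± 50.3 to 115 ± 6.11 and from 13614 ± 123 to 3519 ± 426. Of 18 tested genes of NADPH supply, 4 rose and 8 fell, while 6 did not pass, at a median of -0.38 on the log2 scale. With equal totals 7 rose and 6 fell and the median was 0.06, below the 0.48 over all genes tested with that scaling. NAD kinase (Nadk) fell from 7020 ± 154 to 1422 ± 28.5. Glucose-6-phosphate dehydrogenase (G6pdx), the entry to the pentose phosphate pathway, fell from 2179 ± 71.6 to 290.2 ± 66.9 and transaldolase (Taldo1) from 11968 ± 289 to 5222 ± 707. The mitochondrial folate enzyme Mthfd1l rose from 10.7 ± 1.40 to 89.9 ± 16.5. Across the 6 lists 134 distinct genes were tested, 14 of which stand in more than 1 list.

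**Figure D5:**
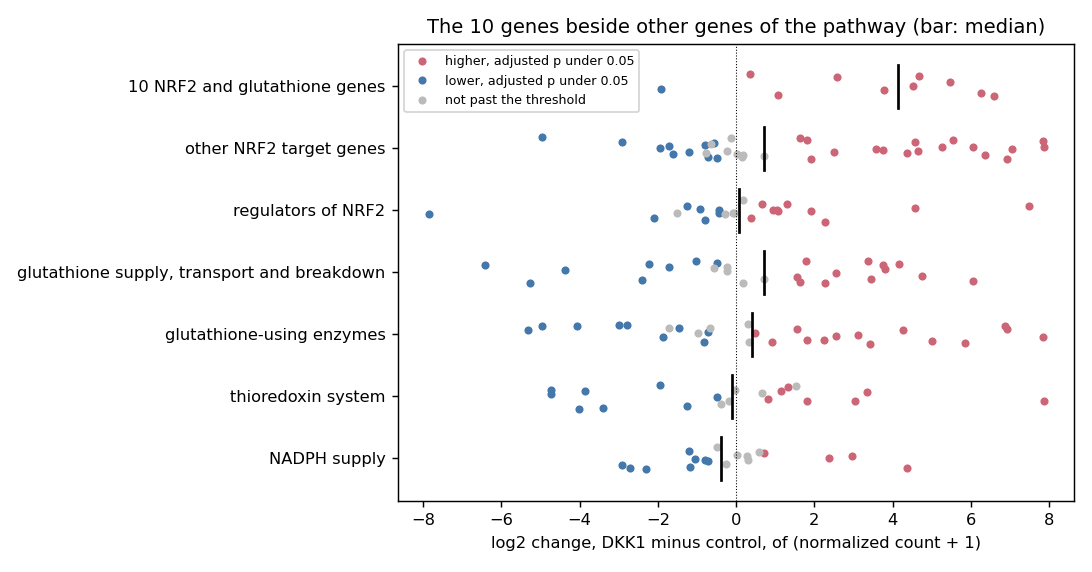
Log2 change, DKK1 minus control, of each tested gene in 7 sets, the 10 genes on top, coloured red (higher), blue (lower) or grey (not past the threshold), with a bar at each median. The 10 genes have a median of 4.14, and the medians of the other sets lie between -0.38 (NADPH supply) and 0.72 (other NRF2 targets), each with points on both sides of 0. All sets were chosen with earlier results of these data known.

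Among the genes whose profile over the 6 libraries lay nearest to that of Slc7a11 were Hsp90aa1 and Gbe1, at Euclidean distances of 0.120 and 0.182 between mean-centred log2 values, among 6723 genes with a mean of at least 100. They encode a cytosolic chaperone and the glycogen branching enzyme. For Nfe2l2 the nearest were Atf2 (0.0820), Ankhd1 (0.0850) and Cltc (0.0853), with log2 changes of 0.36, 0.39 and 0.31. These distances are descriptions over 2 groups of 3 libraries.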

How the data were processed

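Gene expression was measured by RNA sequencing in 6 libraries. The authors deposited normalized counts (a signal at or above 0) with 1 column per library, per the file headers, on mm10, per the submitters' processing notes. The sources used here do not give the aligner, counter, annotation, strandedness or how the factors were set. A further 3 columns match no sample and were not used. All values (100%) were whole multiples of the value of 1 read within 0.001 reads, so reads were recovered.

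The 16265 genes that reached a normalized count of 1 in 3 or more libraries were tested with limma 3.58.1 in R 4.3.3 (trend, robust) on log2(normalized count + 1), two-sided, Benjamini-Hochberg adjusted over all of them, threshold 0.05. This scale understates changes of low genes. Folds are ratios of mean normalized counts. Levels per kilobase used exonic lengths of GENCODE M21, matched by identifier without version (96.5% of tested genes). The length merges the exons of all annotated transcripts of a gene and can exceed that of the transcript made. Comparisons of levels between genes depend on it, while the fold change of a ratio between groups does not. The script was tested on simulated data for DKK1 minus control (15512 genes entering): it recovered 35.8%, 76.1% and 97.0% of genes changed by 0.5, 1 and 2 on the log2 scale, 8.55% of calls were false, and it made 0 calls without change. Only 67, 67 and 66 genes were changed there, far fewer than were called here, and each library was scaled to its known depth. Those rates therefore do not carry over to these data. Replicates differed beyond counting noise (chi-square on reads).

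The members, lists and motifs were chosen with earlier results of these data known. All 10 members are named, with the 4 genes of smallest adjusted p and non-overlapping groups in each list, Cd101 and Ly6g, and the 3 genes nearest in profile to Slc7a11 and to Nfe2l2, of which 1 is not reported here. Alternatives were other pseudocounts, filters and scalings, a replicate block, leaving out each library, and edgeR 4.0.16 (quasi-likelihood) and DESeq2 1.42.0 on recovered reads.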

Additional observations from a re-analysis of the deposited data

How the results depend on the processing

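All 10 genes kept their direction and stayed past the threshold under each of the 17 alternatives, including edgeR and DESeq2 on recovered reads, each of which called 9 higher and 1 lower. The size of the Nfe2l2 rise depended most on scaling, at 0.30 with median-of-ratios and 0.89 with equal totals on the log2 scale. Counts of higher and lower genes over all genes, the 10 genes and the 6 lists were recomputed as well, and 270 of them lay within 1.5 times the reported count. The other 2 moved farther, both with equal totals: 7 genes of NADPH supply were higher in place of 4, and 5 other NRF2 targets were lower in place of 10. With that scaling genes at large moved the same way, from 5709 to 7159 higher and from 5873 to 4617 lower. Leaving out each library in turn gave 4884 to 5379 genes higher and 4652 to 5846 lower. The filter was reapplied each time, so 14904 to 15415 genes were tested in place of 16265, and these ranges include that change. With the replicate number as a block 5630 genes were higher and 5817 lower, and the 10 genes kept their calls; same-numbered libraries correlated by 0.0214, 0.0491 and 0.0335 in their deviations from the group means, so the numbers were not taken as pairs. Each library in fact correlated best with its own number, which is a hint from the data and not part of the design. Depth limits Nqo1 in control, which rests on 12 to 29 reads per library.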

Other observations

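Txnrd1 is a selenoprotein, so genes for making selenoproteins and other members of that class were looked at after the results above were known. The set also held the selenium-binding protein gene Selenbp1, which is not of that class, and Selenoo was not looked up. Of 18 genes of this set measured, 17 entered the test. Among these 6 were higher and 6 lower, and 5 did not pass, at a median of -0.02 on the log2 scale. That split was near the shares over all genes tested, 35.1% higher and 36.1% lower. Selenop, the secreted selenium carrier, fell from 935 ± 55.2 to 19.2 ± 5.04, Selenon from 2644 ± 57.8 to 88.2 ± 28.9, and Sephs2, which makes the selenium donor, from 3600 ± 68.2 to 1019 ± 105 (SD, n = 3 each). Selenos, a protein of endoplasmic reticulum degradation, rose from 62.4 ± 7.26 to 486 ± 44.2, and the selenocysteine elongation factor gene Eefsec rose from 4.0 ± 5.10 to 42.2 ± 2.79. Among glutathione and thioredoxin selenoproteins, Txnrd1 and the scarce Txnrd3 (2.78 ± 2.42 to 30.5 ± 10.1) rose and Gpx1, Gpx4 and Msrb1 fell. Txnrd2 (5.62 ± 1.22 and 22.8 ± 15.1) and Gpx3 (13.6 ± 5.32 and 8.59 ± 4.29) did not pass, although Txnrd2 passed as higher with equal totals (limma adjusted p = 0.0213).

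Mthfd2, a mitochondrial folate enzyme, was uneven within its group: DKK1 library 2 held 379 against 68.6 and 71.9 in the other DKK1 libraries and 18.7 to 32.4 in control.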
